A study of Homo sapiens with 4 samples.

Results

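The HSP70 and HSP110 chaperones examined here are 10 genes, HSPA1A, HSPA1B, HSPA2, HSPA4, HSPA4L, HSPA8, HSPA9, HSPA13, HSPA14 and HSPH1, named by symbol and found by Ensembl identifier among 58560 genes to which transcript counts were summed. The cells were of the A549 line, which was grown from a human lung adenocarcinoma, and gave 4 RNA sequencing libraries. The 2 control libraries came from A549 cells in complete medium, with no treatment named. The 2 deprived libraries came from A549 cells that were rinsed with phosphate-buffered saline and given fresh medium lacking glutamine. Deprivation lasted 24 hours per the protocol, but the label of deprived replicate 2 says 25 hours and that of replicate 1 says 24. The deprived cells also received a medium change that the labels do not give for the controls, so glutamine and medium change cannot be told apart. Nothing in the labels says that replicates were separate cultures, so p-values measure the spread between these libraries, which may be technical.

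HSP70 proteins bind short hydrophobic stretches of unfolded protein and let go of them in a cycle driven by ATP. J-domain proteins start the hydrolysis of ATP and so close HSP70 on its substrate, and nucleotide exchange factors, HSP110 proteins among them, release ADP and open it again. HSF1, the heat shock factor, drives many of the cytosolic members by binding inverted repeats of the letters GAA upstream of the gene, whereas some members, such as HSPA8, are also made in large amount without stress.

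The libraries held 101496318 and 101982373 counts in the controls and 123414592 and 120425759 in the deprived cells. All 10 members were among the 24527 genes that passed the filter on low counts. Levels are TMM-scaled CPM, that is, counts relative to the size of the library after an adjustment for its composition, and changes are log2 fold changes of deprived over control ± SE. Genes were called by edgeR's quasi-likelihood test at a Benjamini-Hochberg adjusted p under 0.05 over all tested genes. The median log2 fold change of all tested genes was -0.06 with TMM, -0.17 with upper-quartile factors and -0.40 with library size only. The epithelial markers KRT8 (714 to 5235 CPM) and KRT18 (978 to 2279 CPM) were abundant in every library, although 5 of 6 epithelial markers fell and their summed level went from 8227 and 8388 to 4179 and 3566 CPM. The labels call the line alveolar basal epithelial. The basal keratin genes KRT5 and KRT14 were at 0 counts in 3 of 4 libraries and under 1 CPM in the remaining one. TP63 and KRT15, also on the basal list, were at 5.4 and 5.67 CPM and at 2.21 and 1.74 CPM in the controls. Both were called lower and were under 1 CPM in the deprived libraries. The surfactant gene SFTPA1 was at 0 in all 4 libraries. The alveolar type II list summed to 42.4 and 42.2 CPM in the controls and 31.3 and 32.6 CPM in the deprived libraries. ABCA3 made up most of it, at 41.2 and 41.3 CPM, then 27.7 and 28.6 CPM. On that list LAMP3 and NKX2-1 were called higher, at no more than 3.03 and 0.811 CPM, and ABCA3 and SFTPD lower. Markers of other cells summed to at most 3.44 CPM for fibroblasts and 0.91 CPM for endothelium. The blood list summed to 26.6 and 12.7 CPM in the controls and 0.756 and 0.875 CPM in the deprived libraries, mostly CD14 and, in control replicate 1, HBB, with 3 of its 4 tested genes lower, and its part in the results was not tested. In bulk libraries, fewer cells of a type and less RNA per cell cannot be told apart.

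After a day without glutamine, the family split. HSPA8, HSPA1A, HSPA1B and HSPA2 fell by 10.1-fold, 10.7-fold, 10.3-fold and 12.9-fold, and the HSP110 gene HSPH1 fell by 1.52-fold. HSPA13, HSPA4L, HSPA9 and HSPA4 rose by 3.27-fold, 2.19-fold, 1.85-fold and 1.66-fold. HSPA14 was 1.22-fold higher on average and not called. By edgeR, 4 of 10 members were thus called higher and 5 lower, where 49.6% of all tested genes were called, 25.2% higher and 24.4% lower. The groups did not overlap for any of the 10 members, as was so for 76.5% of all tested genes. The median over the members was -0.16, beside -0.06 over all genes. These directions held under every scaling tried, except that HSPA14 turned to -0.051 with library size only.

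**Figure D1:**
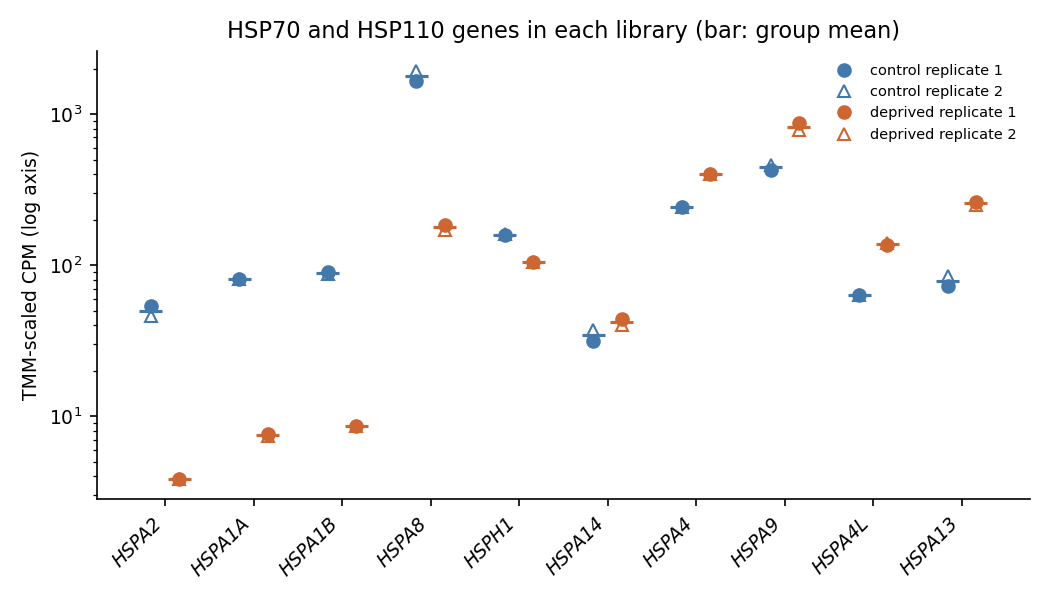
TMM-scaled CPM (log axis) of each member in the 4 libraries, controls in blue and deprived in orange, with replicate 1 as filled circles, replicate 2 as open triangles and a bar at each group mean. HSPA8 dropped from 1661 and 1923 CPM to 184 and 171 CPM, and HSPA13 climbed from 72.4 and 84.4 CPM to 263 and 249.9 CPM.

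Because several members are copies of each other, the sequences that bear on this are shown first. HSPA1A (chromosome 6, 31815464 to 31817946) and HSPA1B (chromosome 6, 31827735 to 31830255), both on the plus strand of GRCh38, have a single exon in their main transcripts, and their coding sequences of 1923 bases differ at 4 positions. Counted from 1 at the A of the start codon, with the HSPA1A base first, these are G1710T, G1860C, C1905T and A1920G. None changes any of the 640 encoded residues, so the protein is the same. The coding bases 1831 to 1920, chr6:31817587-31817676 in HSPA1A and chr6:31829781-31829870 in HSPA1B, hold 3 of the 4 differences, shown in capitals because they are nearly all that a short read in the coding sequence can use to tell the genes apart.
HSPA1A coding 1831 to 1920: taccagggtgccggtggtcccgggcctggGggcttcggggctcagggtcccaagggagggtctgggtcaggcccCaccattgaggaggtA
HSPA1B coding 1831 to 1920: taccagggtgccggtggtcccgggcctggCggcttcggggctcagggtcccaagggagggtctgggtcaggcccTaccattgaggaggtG
Of all stretches of 100 bases, 69.9% of those in HSPA1A-201 and 72.7% of those in HSPA1B-201 also occurred in transcripts of other genes. The upstream sequences are close as well. Over 171 bases ahead of the first annotated exon (chr6:31815293-31815463 and chr6:31827488-31827658, RefSeq, GRCh38.p14, plus strand), 163 of 172 alignment columns were identical (94.8%), with 7 mismatches and 2 gaps, and both held a head-to-head pair of heat shock units, GAANNTTC, in capitals, which began 106 and 105 bases before the RefSeq start.
HSPA1A upstream: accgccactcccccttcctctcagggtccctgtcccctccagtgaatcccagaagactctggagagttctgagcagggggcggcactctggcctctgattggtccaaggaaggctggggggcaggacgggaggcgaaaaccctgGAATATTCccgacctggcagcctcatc
HSPA1B upstream: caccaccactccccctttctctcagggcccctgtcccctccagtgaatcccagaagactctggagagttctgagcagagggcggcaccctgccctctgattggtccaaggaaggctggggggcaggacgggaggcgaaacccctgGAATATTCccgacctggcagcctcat

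HSPA1A and HSPA1B, the stress-inducible cytosolic HSP70 genes, were at 80.7 and 81.3 CPM and at 89.8 and 87.9 CPM in the control libraries. In the deprived libraries HSPA1A was at 7.64 and 7.46 CPM and HSPA1B at 8.63 and 8.58 CPM. Both deprived libraries lay far below both controls for each gene, and replicates nearly coincided. The log2 fold change was -3.42 ± 0.075 for HSPA1A and -3.37 ± 0.074 for HSPA1B (edgeR adjusted p = 8.64e-06 for each). HSPA1A held 47.3% and 48.1% of the counts of the pair in the controls and 47.0% and 46.5% in the deprived libraries. Since reads from the shared stretches had to be assigned by the authors' method, this division and the separate levels are uncertain. The sum does not depend on how reads were divided within the pair. It can depend on whether shared reads were dropped or given to other genes, which the sources used here do not say. Summed with HSPA1L, their neighbour in this cluster, the copies changed by -3.38 (edgeR adjusted p = 8.37e-06).

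HSPA8 (chromosome 11, 123057489 to 123063230, minus strand) encodes HSC70, the constitutive cytosolic HSP70 that also uncoats clathrin vesicles and feeds chaperone-mediated autophagy. Its RefSeq promoter window held 2 three-unit heat shock elements, searched as GAANNTTCNNGAA on both strands and shown in capitals within 30 bases, in the sense of the gene, because none of the windows of the 8 other members that have one held this element.
HSPA8, 230 bases before the start, chr11:123062345-123062374: gcgagcttGAAAGTTCCAGAAcgctgcggt
HSPA8, 55 bases before the start, chr11:123062170-123062199: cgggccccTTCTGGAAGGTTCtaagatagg
HSPA8 was at 1661 and 1923 CPM in the controls (1792 ± 186, SD, n = 2) and at 184 and 171 CPM in the deprived libraries (178 ± 9.39, SD, n = 2). The deprived libraries agreed closely and lay far below the controls, which differed somewhat from each other. The log2 fold change was -3.33 ± 0.12 (edgeR adjusted p = 1.53e-05), lower than that of all but 2.43% of tested genes. No stretch of 100 bases of HSPA8-218 occurred in another gene's transcripts. The 17 annotated HSPA8 pseudogenes together held 165 and 175 counts in the controls and 100 and 189 in the deprived libraries, at most 1.017% of the counts of HSPA8, and adding them left the change at -3.32. SNORD14E, a small nucleolar RNA in an intron of HSPA8, had 73 and 80 counts in the controls and 11 and 9 in the deprived libraries, the same side as its host, with few counts. SNORD14C and SNORD14D, also within HSPA8, were at 1 count in every library.

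HSPA2 (chromosome 14, 64535905 to 64546173), an HSP70 known for its role in making sperm, was the member with the lowest log2 fold change. It was at 54.0 and 46.0 CPM in the controls and at 3.87 and 3.86 CPM in the deprived libraries. The deprived libraries were nearly equal and far below both controls, with a change of -3.69 ± 0.11 (edgeR adjusted p = 1.32e-05). Its coding sequence is 80.1% identical to that of HSPA1B and 73.3% to that of HSPA8, but none of the 100-base stretches of HSPA2-201 occurred elsewhere.

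The 3 HSP110 genes went both ways. HSP110 proteins are large relatives of HSP70 that act as its nucleotide exchange factors and hold unfolded protein in solution. HSPH1 (HSP105; chromosome 13, 31134974 to 31162388) was at 158 and 161 CPM in the controls and 105 CPM in each deprived library, a change of -0.61 ± 0.065 (edgeR adjusted p = 0.000558). HSPA4 (APG-2; chromosome 5, 133051962 to 133106449) was at 242 and 241 CPM in the controls and 402 and 403 CPM in the deprived libraries, a change of 0.73 ± 0.069 (edgeR adjusted p = 0.00033). HSPA4L (APG-1; chromosome 4, 127781821 to 127840733) was at 63.0 and 63.7 CPM in the controls and 137 and 141 CPM in the deprived libraries, a change of 1.13 ± 0.066 (edgeR adjusted p = 5.63e-05). For each of the 3, replicates lay close together and the groups were well apart, HSPH1 lower and the others higher in deprived cells. Scaling by library size only gave HSPH1 -0.94 and HSPA4 0.40, both still called. Their coding sequences are 64.3% to 66.3% identical, and 4.13% of the 100-base stretches of HSPA4L-201, and none of HSPA4-201 or HSPH1-201, occurred in other genes. HSPA4L also held a pair of heat shock units, tail to tail (TTCNNGAA, in capitals), 170 bases before 1 of its 3 RefSeq starts. The windows of HSPA2 and HSPH1 held no pair of either kind. The HSPA4L pair is shown to set beside the elements of HSPA1A, HSPA1B and HSPA8. Whether any of these elements bears on the changes was not tested.
HSPA4L, chr4:127782141-127782170: tttccagatctTTCTCGAAcccgcagcttc

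Over 35116 RefSeq promoter windows of 250 bases before the start, GAANNTTCNNGAA was found in 155 (0.441%), GAANNTTC in 5.78% and TTCNNGAA in 6.62%, counting both strands. The 3-unit element contains both shorter ones, so these shares overlap. The members had 11 windows for 9 genes. GAANNTTC was in those of HSPA1A, HSPA1B and HSPA8 and TTCNNGAA in those of HSPA4L and HSPA8. The CCAAT box (CCAAT, 32.0% of all windows) was in windows of HSPA1A, HSPA1B, HSPA8, HSPA2 and HSPA4L, and TATAAA (10.7%) in those of HSPA1A, HSPA1B and HSPA4L. TGATGNAA, the core of the amino acid response element that ATF4 binds, stood in 3.14% of all windows and, among the members' windows, in 1 of HSPA4L, 157 bases before another of its starts than the one with the heat shock units. These are matches of letters, not sites of binding, and a window without a match says only that these letters are not in it. The HSPH1 window lies ahead of an upstream start, 461 bases from that of HSPH1-201.

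HSPA9, HSPA13 and HSPA14 work outside the folding cycle of the bulk cytosol. HSPA9 (mortalin; chromosome 5, 138553756 to 138575724) is the HSP70 of the mitochondrial matrix and pulls preproteins through the import channel. It was at 428 and 461 CPM in the controls and 867 and 779.8 CPM in the deprived libraries, both of which were well above both controls. The change was 0.89 ± 0.094 (edgeR adjusted p = 0.000512), or 0.55, still called, with library size only. HSPA13 (STCH; chromosome 21, 14371115 to 14383484) is a microsomal member that lacks the substrate-binding domain. It was at 72.4 and 84.4 CPM in the controls and 263 and 249.9 CPM in the deprived libraries, far apart, with a change of 1.71 ± 0.096 (edgeR adjusted p = 4.99e-05), higher than that of 94.1% of tested genes.

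HSPA14 (HSP70L1; chromosome 10, 14838164 to 14871741) sits on the ribosome with the J-domain protein DNAJC2 and helps nascent chains fold. It was at 31.7 and 37.4 CPM in the controls and 43.8 and 40.4 CPM in the deprived libraries. The deprived libraries were higher, but the gap to the nearer control was smaller than the gap between the controls. The change of 0.28 ± 0.10 was not called (edgeR adjusted p = 0.0632), was called at 0.39 without control replicate 2 (edgeR adjusted p = 0.0404) and by DESeq2 (0.32, adjusted p = 0.0321), and was -0.051 with library size only. HSPA14 shares 460 exon bases (17.4%) with MSANTD7 on the same strand, and 20.1% of its 100-base stretches occur there, so its counts are uncertain. MSANTD7 had 4532 and 4571 counts in the controls and 8321 and 7859 in the deprived libraries.

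The members' order of abundance changed. Compared per kb of the union of exons, HSPA8 led the controls with 369.5 ± 38.3 CPM per kb (SD, n = 2), followed by HSPA9 (53.8), HSPA4 (46.9), HSPA1B (35.2), HSPA1A (32.6), HSPH1 (19.0), HSPA13 (18.7), HSPA14 (13.1), HSPA2 (8.65) and HSPA4L (5.45). Only HSPH1 and HSPA13 overlapped between neighbours in that order. In deprived cells the order was HSPA9 (99.8 ± 7.51, SD, n = 2), HSPA4 (78.1), HSPA13 (61.2), HSPA8 (36.7), HSPA14 (15.9), HSPH1 (12.5), HSPA4L (11.9), HSPA1B (3.41), HSPA1A (3.04) and HSPA2 (0.669), and no neighbours overlapped. HSPA8 made up 61.2% of the members' summed level per kb in the controls and 11.3% in the deprived cells, while HSPA9 went from 8.93% to 30.9%. With each gene's length weighted by its transcripts, HSPA9 went from 13.7% to 50.1% and HSPA8 from 67.7% to 13.3%, and HSPA8 stood ahead of HSPA13 in the deprived cells.

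**Figure D2:**
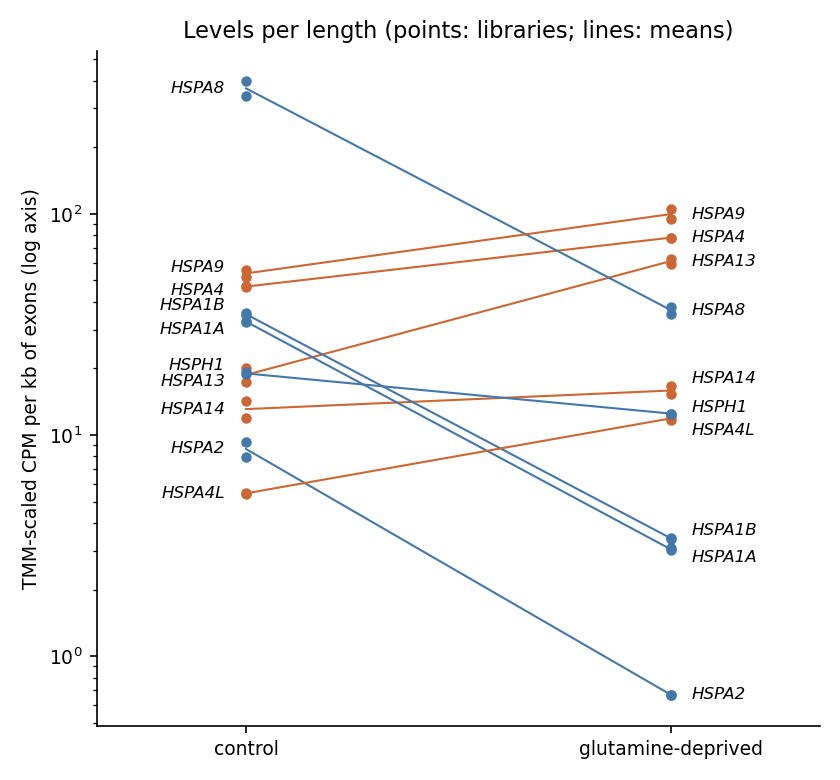
TMM-scaled CPM per kb of exons (log axis) in control and deprived cells, with a point for each library and lines joining group means, orange where the mean was higher and blue where it was lower in deprived cells. HSPA8 goes from 369.5 to 36.7 CPM per kb and is passed by HSPA9, HSPA4 and HSPA13, and HSPA2 ends lowest at 0.669.

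In CPM, the members together were at 2879.9 and 3187 in the controls and 2022 and 1909 in the deprived libraries, a lower total. Without HSPA8, the other 9 were at 1219 and 1264 CPM in the controls and 1838 and 1738 CPM in the deprived libraries, a higher total. HSPA8 thus set the direction of the sum, holding 57.7% and 60.3% of the family's counts in the controls and 9.12% and 8.97% in the deprived libraries.

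At the level of annotated transcripts, the files divide each gene's reads by an estimate, and the spread between replicates was larger than for genes (common biological coefficient of variation 0.688, against 0.21). Of 69 transcripts of the members, 58 were tested, and edgeR called 1 higher and 4 lower, where 1.03% of 88815 tested transcripts were called, 0.719% higher and 0.314% lower. The 5 were HSPA13-201 (adjusted p = 0.0451), HSPA1A-201 and HSPA1B-201 (0.0388 each), HSPA2-201 (0.0421) and HSPA8-202 (0.0464), and each moved as its gene did. With any 1 of the 4 libraries left out, the change of HSPA1A-201 stayed close in size (-3.45 to -3.38, against -3.44). This did not hold for every transcript. HSPA8-218 ranged from -8.163 to -4.665, against -5.567, and HSPA8-201 and HSPA8-222 turned in direction. DESeq2 called 13450 of 88815 transcripts higher and 13109 lower. Of the 18 member transcripts with at least 5% of a gene's counts, it called 7 higher and 7 lower. HSPA1A, HSPA1B, HSPA2, HSPA4, HSPA4L and HSPA13 each had 1 transcript with at least 95.2% of the counts in every library.

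HSPA8 fell across its transcripts, but how its counts were divided differed between replicates. Of 22 transcripts with at least 10 counts on average, 20 were lower in both deprived libraries than in both controls, where the groups did not overlap, in either direction, for 60.3% of all tested transcripts. HSPA8-224 held 50.4% and 15.2% of the gene in the controls and 87.1% and 48.0% in the deprived libraries. HSPA8-218 held 33.4% and 65.8% in the controls and 1.69% and 21.0% in the deprived libraries. HSPA8-202 held 7.08% and 10.2%, then 4.58% and 5.22%. HSPA8-201 and HSPA8-222 passed 5% only in deprived replicate 2, at 7.69% and 10.6%. The replicates of a group disagreed too far for a change in the make-up of HSPA8 to be read from these shares.

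In HSPH1, the share of HSPH1-202 was close between the deprived replicates, whereas those of HSPH1-201 and HSPH1-209 were not. HSPH1-202 lacks exon 12 of the 18 exons of HSPH1-201 (chr13:31143792-31143923, minus strand, GRCh38), a coding exon of 132 bases, or 44 codons, that leaves the reading frame intact. The exon is shown in capitals with 15 transcript bases on each side, because its presence tells the long and short forms, known as HSP105 alpha and beta, apart.
HSPH1 exon 12: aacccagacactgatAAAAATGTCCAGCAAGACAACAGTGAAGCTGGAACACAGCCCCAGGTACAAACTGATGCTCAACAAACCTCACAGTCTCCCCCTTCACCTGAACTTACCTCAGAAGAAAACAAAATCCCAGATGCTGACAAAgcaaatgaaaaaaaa
HSPH1-202, without this exon, held 1142 and 1777 counts in the controls and 3003 and 2757 in the deprived libraries. As a share of the full-length coding transcripts it held 7.35% and 11.2% in the controls and 29.5% and 27.7% in the deprived libraries. Both deprived libraries were well above both controls while the gene as a whole fell. HSPH1-202 also differs from HSPH1-201 outside this exon, at 3480 against 5191 bases from the same start. HSPH1-209, which holds the exon, is 3570 bases long. Whether the shares follow exon 12 or other parts of the transcripts was not tested. HSPH1-201 held 78.8% and 77.0% in the controls and 52.4% and 35.4% in the deprived libraries. HSPH1-209, which begins at the upstream start, held 0.955% and 1.62% in the controls and 8.42% and 28.1% in the deprived libraries, so its deprived libraries were both higher but far from each other. By edgeR the transcripts changed by -1.45 ± 0.25 for HSPH1-201 (adjusted p = 0.0813), 1.037 ± 0.321 for HSPH1-202 (adjusted p = 0.167) and 3.19 ± 0.78 for HSPH1-209 (adjusted p = 0.12), and none was called, whereas DESeq2 called all 3 (adjusted p = 5.14e-07, 0.00833 and 7.07e-05). HSPH1-207, which retains an intron, held 10.9% and 8.45% in the controls and 5.86% and 10.6% in the deprived libraries.

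HSPA9 had more of its counts on transcripts that are not annotated as coding. Transcripts of other types than protein coding, marked for nonsense-mediated decay or with a retained intron, held 2.79% and 3.55% of HSPA9 in the controls and 6.66% and 9.52% in the deprived libraries. Both deprived libraries were above both controls, and this share was given no test. HSPA9-201, the main coding transcript, held 97.0% and 96.2% in the controls and 93.1% and 90.3% in the deprived libraries, and its change of 0.80 ± 0.11 was not called (edgeR adjusted p = 0.0652), but was called with a filter of at least 50 counts in 2 libraries (edgeR adjusted p = 0.0417) and by DESeq2 (adjusted p = 6.71e-09). HSPA14-201 held 94.1% to 97.9% of HSPA14 and HSPA14-203, a processed transcript, 1.77% to 5.25%, and edgeR called neither, whereas DESeq2 called HSPA14-203 higher (1.41, adjusted p = 0.000203).

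**Figure D3:**
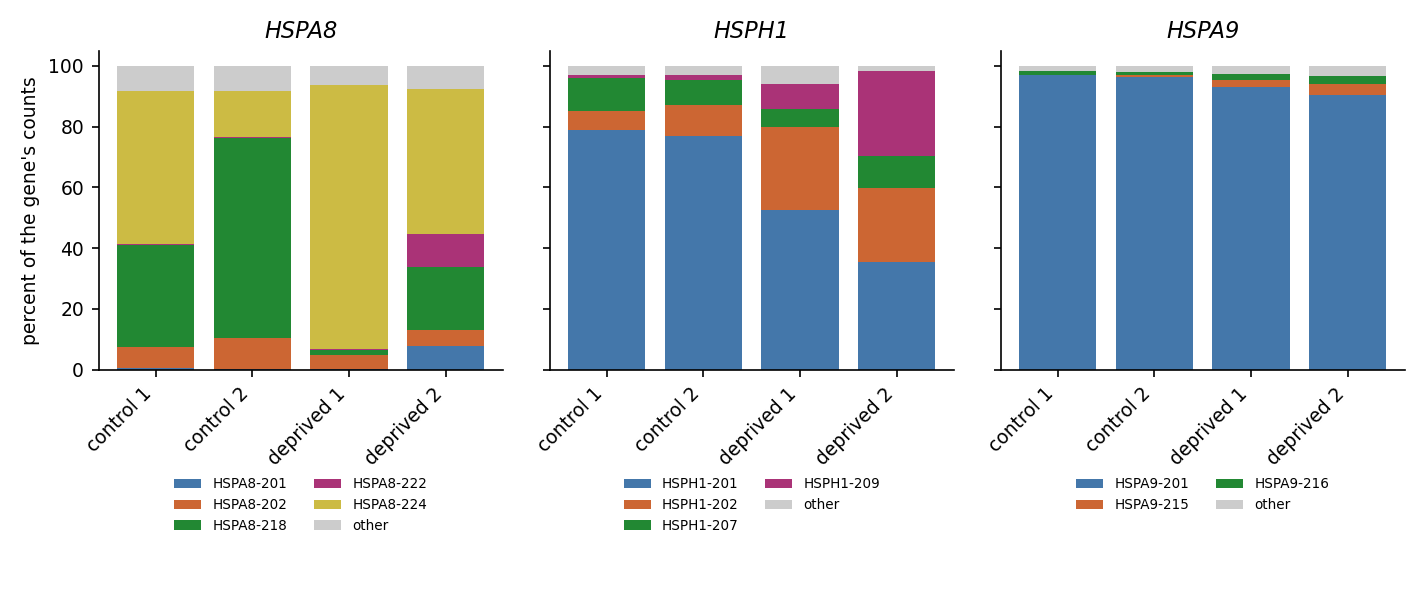
Percent of the counts of HSPA8, HSPH1 and HSPA9 held by each annotated transcript in each of the 4 libraries, with minor transcripts in grey. In HSPH1 the share of HSPH1-201 is 78.8% and 77.0% in the controls and 52.4% and 35.4% in the deprived libraries, and in HSPA8 the replicates of a group divide the counts differently.

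The remaining HSP70 relatives that were looked at fell in 4 of 6 cases and rose in 1, with a median of -1.74. For this list and those that follow, the shares over all tested genes were 25.2% called higher and 24.4% called lower. HSPA5 (BiP), the HSP70 of the endoplasmic reticulum, rose from 202 and 216 CPM to 439 and 436 CPM (1.066 ± 0.076, edgeR adjusted p = 0.000109). HSPA12A and HSPA12B, distant relatives, fell (-1.73 and -2.935), and HSPA1L and HSPA6 fell (-2.40 and -1.75) from levels of at most 1.51 and 0.599 CPM. The HSPA6 call was lost without control replicate 1 (edgeR adjusted p = 0.0565) or control replicate 2 (0.117). HYOU1, the HSP110 relative of the endoplasmic reticulum, was at 38.6 and 13.6 CPM in the controls and 21.5 and 24.9 CPM in the deprived libraries. Its controls enclosed the deprived libraries, and its change of -0.17 was not called (edgeR adjusted p = 0.779), turning to 0.76 without control replicate 1, where edgeR called it higher (adjusted p = 0.00881), and to -0.75 without control replicate 2, where it was called lower (adjusted p = 0.00598).

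The J-domain partners, which deliver substrates to HSP70, rose more often than they fell, 12 against 5 of 21 tested, with a median of 0.39. DNAJB2, a J-domain protein that passes HSP70 clients to the proteasome, rose from 26.4 and 29.2 CPM to 397 and 339.7 CPM (3.73 ± 0.11, edgeR adjusted p = 1.32e-05), far above both controls. DNAJB4 (1.15), DNAJA3 (1.00), the mitochondrial J-protein, and DNAJC2 (0.87) also rose. DNAJA1 and DNAJB1, the main partners of the cytosolic HSP70 proteins, fell (-1.42 and -0.35). Of 10 nucleotide exchange factors outside the family, 4 rose and 0 fell by edgeR, with a median of 0.22, and 2 of the 4 were GRPEL1 (1.069 ± 0.083) and GRPEL2 (1.47 ± 0.071), the exchange factors of HSPA9. BAG5 (1.197) and BAG6 (0.62) were the others, BAG6 losing its call with library size only (0.28, edgeR adjusted p = 0.0776). BAG3, which links HSP70 to autophagy, changed by -0.24 and was not called (edgeR adjusted p = 0.0606), though it was called lower with upper-quartile factors, with library size only and with a filter of at least 50 counts in 2 libraries.

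The HSP90 system and its adaptors fell in 9 of 14 cases and rose in 2, with a median of -0.61. HSP90AA1 and HSP90AB1, the inducible and constitutive cytosolic HSP90 genes, fell (-1.83 and -0.84). FKBP4 and AHSA1, HSP90 co-chaperones, fell (-2.02 and -1.79), while PTGES3 (p23) rose (0.66). Among 14 mitochondrial chaperones and import motor genes, 7 rose and 2 fell, with a median of 0.47, among them LONP1 (1.28), a matrix protease, and TIMM44 (1.24), which tethers HSPA9 to the import channel. The chaperonin genes HSPD1 and HSPE1, neighbours on chromosome 2, went apart, HSPD1 rising (0.32, edgeR adjusted p = 0.0299) and HSPE1 falling (-0.80). The HSPD1 call was lost with library size only (-0.017, edgeR adjusted p = 0.875), upper-quartile factors (0.0774), no filter (0.0549) and a replicate block (0.0894), and without control replicate 1 (0.153) or deprived replicate 1 (0.123).

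Of 3 heat shock factor genes, HSF1 and HSF2 rose and HSF4 fell. HSF1 was at 28.1 and 31.0 CPM in the controls and 46.6 and 44.7 CPM in the deprived libraries (0.63 ± 0.081, edgeR adjusted p = 0.00123), and HSF2 rose by 0.98. HSF4 fell (-0.76, edgeR adjusted p = 0.0325), a call lost with no filter (0.0588), without control replicate 1 (0.0567), control replicate 2 (0.16) or deprived replicate 1 (0.0934), and with transcripts of protein-coding type only (0.286). HSBP1, a negative regulator of HSF1 listed with them, fell (-0.60). HSF1 transcript levels were thus higher in both deprived libraries, and its activity was not measured. Of 17 tested genes known as HSF1 targets outside the family, 12 fell and 4 rose, with a median of -0.67. Of all tested genes, 24.4% were called lower and 25.2% higher. HSPB1, a small heat shock protein, fell (-2.74), whereas HSPB8, the partner of BAG3, rose from 11.3 CPM in each control to 105 and 91.4 CPM (3.12 ± 0.096, edgeR adjusted p = 1.33e-05). Of 4 tested genes listed as small heat shock proteins, 1 rose and 2 fell. HSPB11, listed by this former name and currently IFT25, fell (-0.64), and HSPB6 was not called at under 1 CPM. The HSPB11 call was lost without control replicate 2 (edgeR adjusted p = 0.0834) or deprived replicate 2 (0.0503) and with transcripts of protein-coding type only (-0.42, 0.0761).

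The cytosolic chaperonin TRiC, which takes substrates such as actin and tubulin from HSP70, had 4 of 8 subunit genes higher and 2 lower, with a median of 0.18. CCT6A (0.71), CCT4 (0.59), CCT7 (0.40) and CCT8 (0.34) rose, and CCT3 (-0.80) and CCT5 (-0.43) fell. Of 3 genes for factors of nascent chains, DNAJC2 and BTF3 (0.83) rose, and NACA (-0.086) was not called by edgeR, except as lower with library size only (-0.43, adjusted p = 0.011). Over all these lists, counting each gene once, 32 were called higher and 29 lower, and with library size only 22 were higher and 40 lower. Of all 24527 tested genes, 6174 were called higher and 5982 lower, and with library size only 4179 and 8565. That scaling kept the calls of CCT4 (0.26), CCT6A (0.38), HSF1 (0.29), HSF2 (0.64), PTGES3 (0.32), BTF3 (0.50), DNAJA3 (0.66) and DNAJC2 (0.54) at smaller rises and those of DNAJB1 (-0.69), CCT5 (-0.77), HSBP1 (-0.94) and HSPB11 (-0.98) at larger falls. With transcripts of protein-coding type only, CCT3 was at -1.46 and DNAJC2 at 1.36, both still called. The lists were chosen with earlier results of these data known, and their counts are descriptions.

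**Figure D4:**
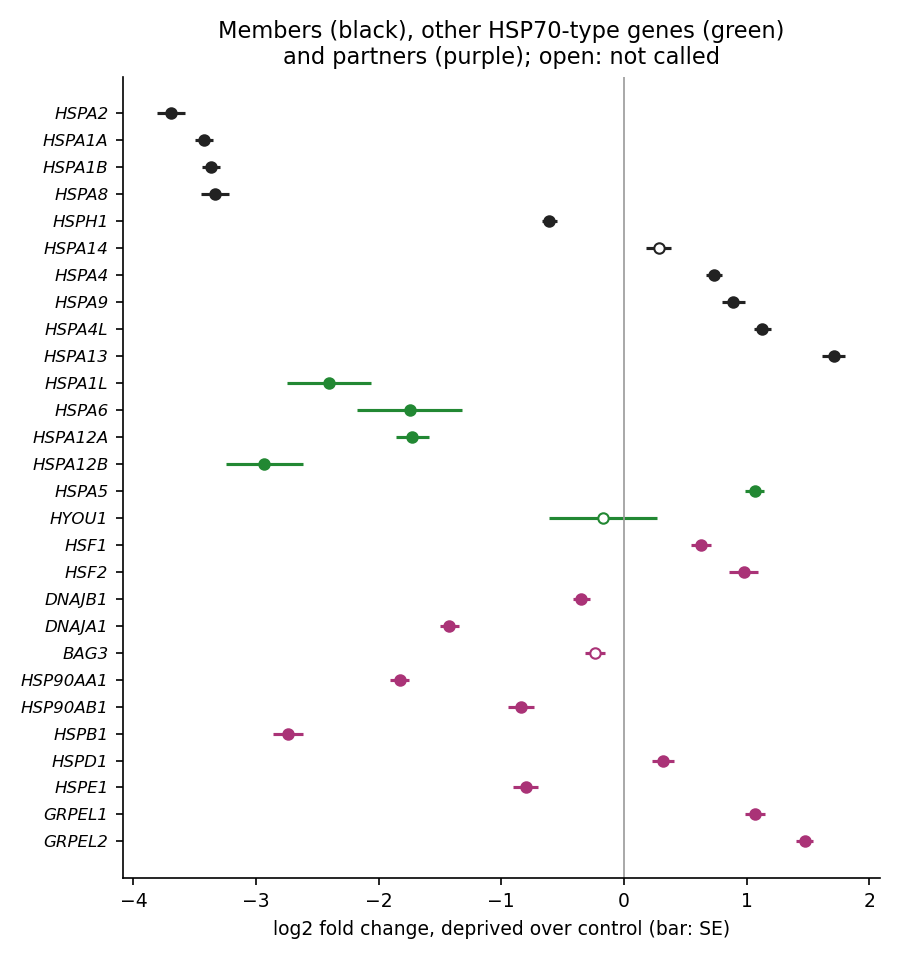
Log2 fold changes, deprived over control, from edgeR with bars of 1 SE, for the 10 members (black), other HSP70-type genes (green) and heat shock factors and partners (purple), with open circles for genes not called. HSPA2, HSPA1A, HSPA1B and HSPA8 lie between -3.69 and -3.33, and HSPA13 is highest of the members at 1.71.

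Genes outside the family whose pattern over the 4 libraries was most like that of HSPA8 were PCDH9, CD24 and FADS2, chosen among 2266 protein-coding genes with at least 100 CPM on average. Their distances from HSPA8, in log2 CPM centred for each gene, were 0.225, 0.244 and 0.334. PCDH9, a protocadherin gene, was at 238 and 247 CPM in the controls and 27.9 and 27.1 CPM in the deprived libraries. CD24, a surface glycoprotein gene, was at 593 and 572 CPM in the controls and 62.9 and 63.7 CPM in the deprived libraries. With 4 libraries in 2 groups, this likeness is mostly the size of the difference between groups.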

How the data were processed

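RNA of A549 cells was sequenced in 2 control and 2 deprived libraries. Per the labels' protocols, mRNA was purified on poly-T beads. Per the submitters' processing notes, HISAT2 2.0.5, featureCounts 1.5.0-p3, DESeq2 1.20.0 and the build hg38 (GRCh38) were used, with no role given. The tool dividing reads among transcripts is not given in the sources used here. For 229420 transcripts the authors deposited counts, per the file headers, treated here as estimated counts because overlapping transcripts of a gene hold very different whole numbers. A deposited table of 219 long non-coding RNA comparisons holds none of the members and was not used.

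Counts were summed to genes by Ensembl identifier with GENCODE release 29 (205306 transcripts matched, with 98.04% to 98.25% of counts, and 24114 left out). Genes were filtered with filterByExpr, scaled by TMM (factors 1.147, 1.1, 0.8616 and 0.9194) and tested with edgeR 4.0.16 (glmQLFTest, two-sided) in R 4.3.3. The SE is the absolute log2 fold change over the square root of F. Replicates were compared before averaging, with a chi-square per degree of freedom of 31 between the controls and 43.6 between the deprived libraries, so none was treated as a copy. Scripts were tested on simulated data. The simulated spread between replicates was smaller than the biological coefficients of variation estimated here (0.21 for genes, 0.688 for transcripts). The simulation thus does not measure error rates in these data.

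The named genes are the members, a fixed set of 13 chaperone and heat shock factor genes, up to 4 of each list with the smallest p, member transcripts with at least 5% of a gene's counts, and the 3 genes most like HSPA8. CCT7, CCT8, SNORD14C, SNORD14D, SNORD14E and MSANTD7 fall outside this rule and were chosen after their values were seen. The cell type markers named here also fall outside it and were picked from the marker lists. HSPB11 was matched through its current name IFT25. Members and lists were chosen with earlier results of these data known. No protein sequences were used here, so identity was computed between coding sequences. Promoter windows came from RefSeq (GRCh38.p14), which matched 9 of 10 members (not HSPA14). Alternatives were scaling by RLE, by the upper quartile or by library size alone, no filter on counts, a filter of at least 50 counts in 2 libraries, DESeq2 1.42.0, limma-voom 3.58.1, a replicate block, each library left out, near-identical copies summed, only transcripts of protein-coding type summed, and length weighted by transcript.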

Additional observations from a re-analysis of the deposited data

How the results depend on the processing

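With 2 libraries in each group, spread is estimated with few degrees of freedom, and counts per transcript are estimates that limit every statement on transcripts. Of 140 recomputed values of the members' genes, 137 kept their direction and side of the threshold; the other 3 concern HSPA14, at -0.051 with library size only (adjusted p = 0.66), 0.32 with DESeq2 (adjusted p = 0.0321) and 0.16 to 0.39 with each library left out (called without control replicate 2, adjusted p = 0.0404). The members called higher were 4, or 5 with DESeq2 and without control replicate 2, and those called lower were 5 throughout. Of all genes, 6174 were called higher and 5982 lower with TMM, and 4179 and 8565 with library size only (32.8% of calls higher, against 50.8%).

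Of the 18 member transcripts with at least 5% of a gene's counts, those called higher were 1, 0 with no filter, 4 with at least 50 counts in 2 libraries, 7 with DESeq2, 3 with limma-voom and 0 to 0 with each library left out. Those of the 18 called lower were 4, 0 with no filter, 7 with DESeq2 and 0 to 0 with each library left out. Calls over all transcripts moved too, from 639 higher and 279 lower to 13450 and 13109 with DESeq2, 1826 and 1067 with limma-voom, 2870 and 2373 with at least 50 counts in 2 libraries, and 0 and 0 with no filter, with the replicate block or with any library left out. The alternatives were not run on the other tested member transcripts. With length weighted by transcript, HSPA8 made up 67.7% of the family per kb in the controls and 13.3% in the deprived cells, and HSPA9 13.7% and 50.1%. Directions turned for HSPD1 (-0.017, library size only), HYOU1 (0.008 with limma-voom, and -0.75 to 0.76 with each library left out), NACA (-0.25 to 0.083 with each library left out), HSPA8-201 (-4.19 to 0.95 with each library left out, 0.08 without control replicate 1), HSPA8-222 (-1.545 with limma-voom, and -4.6 to 1.502 with each library left out) and HSPA14-201 (-0.10, library size only). The cause of these changes was not tested. With a library left out, the lone library of its group was assumed to vary like the other group.

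Same-numbered libraries did not deviate together (r = -0.0235 over 24527 genes). With 2 libraries in each group, this cannot say whether same-numbered libraries were handled together. With the replicate number as a block, 5529 genes were called higher and 5079 lower, and 4 and 5 members, while 0 of the 18 member transcripts were called higher and 0 lower. Under the block HYOU1 was at 0.009 and HSPA8-222 at -1.53.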
